A study of Mus musculus with 4 samples.

Results

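Accessible chromatin at 9 genes for transcription factors of lymphoid mesenchyme was examined in sorted mouse lymph node fibroblasts with and without Ccl19-Cre-driven loss of Notch2. ATAC-seq was used, in which a transposase cuts and tags open DNA. The genes were Tlx1, Nkx2-3, Nkx2-5, Meis1, Meis2 and Prrx1, which encode homeobox factors, Tcf21 and Twist1, which encode basic helix-loop-helix (bHLH) factors, and Osr1, which encodes a zinc finger factor. Windows of 300 bp lying up to 100 bp apart were joined into regions, and the window with the most counts stood for its region. Each region was given to the protein-coding RefSeq gene that the midpoint of this window overlapped, or else to the nearest within 100000 bp, which left 97 of 110110 regions for the 9 genes. Meis2 had 30 of them, Meis1 23, Prrx1 18, Tcf21 and Osr1 7 each, Tlx1 5, Nkx2-3 4, Twist1 2 and Nkx2-5 1. Nearness does not show on which gene a region acts.

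The Notch2_cKO group held 2 libraries from Ccl19-Cre x Notch2 fl/fl mice, in which Cre is driven from Ccl19 sequence and the floxed Notch2 alleles are cut in cells where that Cre is active. The control group held 2 libraries from Notch2 fl/fl littermates, so the floxed alleles were common to both groups. The mice are labelled as females of 12 weeks on a C57BL/6 background, every library pooled the brachial, axillary and inguinal nodes of 6 mice, and 50000 live BP3-high, podoplanin-positive, CD31-negative, CD45-negative cells were used for each. These are fibroblastic reticular cells, the stromal fibroblasts that form the conduit network of the node and guide lymphocytes. The labels say no more on how pools were drawn, so the p-values measure the spread between these pools.

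Homeobox and bHLH factors set positional and lineage programmes in mesenchyme. In mice, Tlx1, Nkx2-5 and Tcf21 take part in building the spleen, and Nkx2-3 is needed for spleen and gut-associated lymphoid tissue, while lymph nodes form without Tlx1. Meis proteins are TALE homeobox cofactors that bind DNA together with other homeobox proteins. Prrx1 and Twist1 mark limb and lateral plate mesenchyme and keep mesenchymal cells undifferentiated, and Osr1 marks embryonic fibroblast progenitors.

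Levels are normalized CPM, the counts of the 300-bp best window scaled by loess offsets, and all windows have the same length. These offsets correct each library by a smooth trend of its counts on the mean level of regions. A log2 change sets Notch2_cKO over control and comes with its standard error (SE), derived from the F statistic of edgeR's quasi-likelihood test. A region was called where the Benjamini-Hochberg adjusted p over all 110110 regions was under 0.05. The best windows summed to 12340742 to 30260067 counts per library, 2.45 times apart, with Notch2_cKO replicate 2 the shallowest. Y-linked Ddx3y and Eif2s3y had 221 and 201 counts in control replicate 2 and 0 in the remaining 3 libraries, against the label of female mice. The strongest region within 1000 bp of an end of Notch2 had 55.2 and 46.2 CPM in Notch2_cKO and 55.3 and 57.5 CPM in control (log2 -0.14, SE 0.10, edgeR adjusted p = 0.341). A region there does not check whether the floxed part was removed. Of the fibroblastic reticular cell markers, 10 of 13 had a region within 1000 bp of a gene end, with a median level of 23.8 CPM. Pdgfra had no such region, and Ccl19 and Ccl21a were not analysed here. No gene-end region was analysed for any of 6 leukocyte markers, for Pecam1, Cdh5, Tie1 and Emcn among 6 blood endothelial markers or for Lyve1, Reln, Stab2 and Mmrn1 among 6 lymphatic ones. The other blood endothelial markers, Kdr and Tek, had gene-end regions of 7.93 to 19.9 CPM. The other lymphatic ones, Prox1 and Flt4, had them at 11.4 to 11.9 CPM, and 5 of 6 mural cell markers at 4.68 to 29.3 CPM.

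Of the 97 regions, 9 were higher in Notch2_cKO, 6 were lower and 82 did not pass. This share of 15.5% lay below the 23.7% called over all regions, of which 12.5% were higher and 11.2% lower. The median log2 change of the 97 regions was -0.02, against 0.01 over all regions. The called members were weak to intermediate regions inside or between genes, and the strong regions at gene starts were not among them. The 2 groups did not overlap in 61 of the 97 regions (62.9%), with Notch2_cKO above in 25 (30.4% of all regions) and below in 36 (29.5% of all regions), where 59.9% of all regions had no overlap. Among these 97 regions, every called region of Prrx1 and Meis1 was higher, every called region of Osr1, Tcf21 and Tlx1 was lower, Meis2 had called regions of both kinds, and Nkx2-3, Nkx2-5 and Twist1 had none. In bulk libraries, a change in the share of cells with an open region and a change in openness within each cell cannot be told apart.

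**Figure D1:**
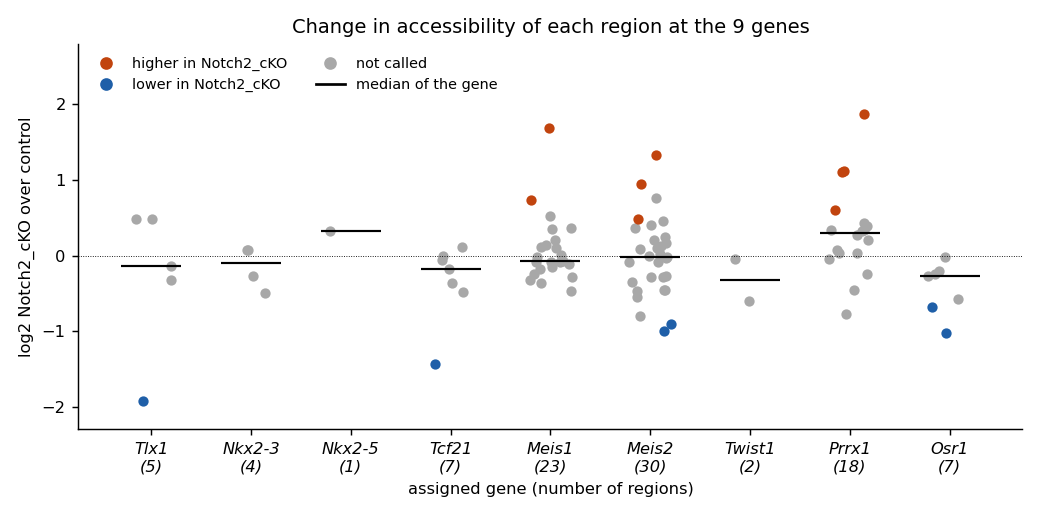
Each point is 1 region, placed by its assigned gene (x axis, with the number of regions) and by its log2 Notch2_cKO over control (y axis), with the black line at the median of the gene. Points in orange were higher and points in blue lower in Notch2_cKO by the edgeR test. Most points are grey and lie near 0, and the called ones run from -1.93 at Tlx1 to 1.87 at Prrx1.

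Tlx1, Nkx2-3 and Nkx2-5 had few and weak regions here. All 5 Tlx1 regions, all 4 Nkx2-3 regions and the Nkx2-5 region lay outside their genes, and positions at the starts of these genes were not analysed. Tlx1, a homeobox factor required for spleen formation in mice, had region levels from 0.571 to 4.09 CPM. The called Tlx1 region lay 2307 bp past the end of the gene, on chromosome 19 from 45159001 to 45159400, and held 8 and 2 counts in Notch2_cKO and 29 and 17 in control. Its level was 0.285 and 0.151 CPM in Notch2_cKO against 1.14 and 0.708 CPM in control (log2 -1.93, SE 0.49, edgeR adjusted p = 0.00685). The groups did not overlap, but the counts are few, and without control replicate 1 the call was lost (log2 -1.41, edgeR adjusted p = 0.14). DESeq2 gave the called Tlx1 region no adjusted p, and the filter on low regions left it out. The strongest Tlx1 region, 25685 bp downstream of the start (45176151 to 45176650), had 3.98 and 3.17 CPM in Notch2_cKO against 4.54 and 4.67 CPM in control and did not pass (edgeR adjusted p = 0.244).

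Nkx2-3, needed for spleen and mucosal lymphoid tissue in mice, had regions of 1.13 to 4.12 CPM. The strongest, 18725 bp downstream of the start and overlapping the lncRNA gene Gm34922 (chromosome 19, 43630751 to 43631400), had 4.11 and 3.24 CPM in Notch2_cKO and 4.76 and 4.36 CPM in control. The groups did not overlap, though narrowly, and the difference did not pass (log2 -0.27, SE 0.19, edgeR adjusted p = 0.356). At Nkx2-5, a heart and spleen mesoderm factor, the single region lay 20085 bp upstream of the start in the lncRNA gene Gm17382 (chromosome 17, 26861251 to 26861900). It had 5.79 and 5.02 CPM in Notch2_cKO and 3.78 and 4.98 CPM in control (log2 0.32, SE 0.19, edgeR adjusted p = 0.249). Its libraries were ordered by group, with a narrow gap between Notch2_cKO replicate 2 and control replicate 2.

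Tcf21, a bHLH factor of visceral and epicardial mesenchyme, had 1 lower region, 0 higher ones and 6 that did not pass. The lower region lay 48607 bp upstream of the start (chromosome 10, 22868401 to 22869000), with 1.33 and 2.01 CPM in Notch2_cKO against 5.12 and 3.38 CPM in control (log2 -1.43, SE 0.26, edgeR adjusted p = 0.000461). Both Notch2_cKO libraries were below both controls, and this call held in each alternative run. The next region outward, 55207 bp upstream (22875051 to 22875650), was the strongest of Tcf21 and carried 64.5% of the region CPM added up over the gene. It had 21.3 and 23.7 CPM in Notch2_cKO and 26.9 and 23.7 CPM in control (log2 -0.18, SE 0.12, edgeR adjusted p = 0.337), so that Notch2_cKO replicate 2 and control replicate 2 were level. The weak and the strong upstream region of Tcf21 thus differed in call, and the difference between them was not tested.

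Twist1, a bHLH factor of mesoderm and neural crest mesenchyme, had 1 strong and 1 weak region. At the start (chromosome 12, 33957651 to 33957950) the level was 19.8 and 15.5 CPM in Notch2_cKO and 16.5 and 20.4 CPM in control (log2 -0.04, SE 0.15, edgeR adjusted p = 0.871). The libraries of the groups were interleaved there. The weak region, 23929 bp downstream (33981351 to 33981850), had 1.38 and 1.16 CPM in Notch2_cKO and 2.02 and 1.93 CPM in control, without overlap, and did not pass (log2 -0.60, SE 0.26, edgeR adjusted p = 0.112).

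Meis1, a TALE homeobox cofactor, spans 18880428 to 19019651 on chromosome 11, on the minus strand. Of its 23 regions 2 were higher, 0 lower and 21 did not pass (8.7% called). The larger rise was inside the gene, 133169 bp downstream of the start and so near its far end (18885551 to 18886100). It had 4.10 and 3.47 CPM in Notch2_cKO against 1.27 and 1.12 CPM in control (log2 1.69, SE 0.24, edgeR adjusted p = 3.62e-05), and this call held in each alternative run. The other higher region lay 51331 bp upstream, in the lncRNA gene 4933406G16Rik (19070051 to 19070650), with 2.60 and 4.40 CPM in Notch2_cKO against 1.72 and 2.19 CPM in control (log2 0.74, SE 0.26, edgeR adjusted p = 0.0463). Notch2_cKO replicate 2 was the highest library there, and the call was lost without it (edgeR adjusted p = 0.282), without control replicate 1 (0.193), with summed windows (0.0712) and with DESeq2 (0.152). The member farthest from its gene was a Meis1 region 92649 bp away (19112001 to 19112650), with 4.59 and 5.95 CPM in Notch2_cKO and 4.10 and 3.92 CPM in control. The nearest region just beyond the distance limit, 101049 bp from Meis1 (19120401 to 19120900), had 3.43 and 3.94 CPM in Notch2_cKO and 6.41 and 5.77 CPM in control. It was lower (log2 -0.75, SE 0.18, edgeR adjusted p = 0.00555), so that every called Meis1 region was higher holds only within this limit. In all, 41 regions beyond the limit had one of the 9 genes as their nearest gene and are not counted as members.

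Meis2, the other Meis gene here, spans 115861264 to 116067537 on chromosome 2, on the minus strand. Of its 30 regions 3 were higher, 2 lower and 25 did not pass, and all 5 called regions lay inside the gene, where 21 regions were. The largest rise was 17019 bp downstream of the start (116047301 to 116047850), with 6.89 and 8.27 CPM in Notch2_cKO against 2.89 and 3.04 CPM in control (log2 1.33, SE 0.19, edgeR adjusted p = 3.48e-05). This call held in each alternative run. The 2 lower regions lay 63069 bp and 151119 bp downstream of the start. The nearer one (116001251 to 116001850) had 2.88 and 4.10 CPM in Notch2_cKO against 5.79 and 6.68 CPM in control (log2 -0.91, SE 0.20, edgeR adjusted p = 0.00234) and was not called without Notch2_cKO replicate 1 (0.0801). The farther one (115913201 to 115913750) had 1.79 and 2.16 CPM in Notch2_cKO against 4.28 and 3.42 CPM in control (log2 -1.0, SE 0.23, edgeR adjusted p = 0.00299) and was not called by DESeq2 (adjusted p = 0.064). In neither did the groups overlap.

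The Meis2 region next to the farther lower one went the opposite way. It lay 145319 bp downstream of the start (115919101 to 115919600) and had 2.45 and 3.78 CPM in Notch2_cKO against 1.36 and 1.68 CPM in control (log2 0.95, SE 0.26, edgeR adjusted p = 0.0122). The remaining higher region, 126369 bp downstream (115937951 to 115938550), was the strongest of the called members, with 11.7 and 11.5 CPM in Notch2_cKO against 7.85 and 8.76 CPM in control (log2 0.48, SE 0.15, edgeR adjusted p = 0.0256). Both calls were lost under several alternatives. The region at 145319 bp was lost without control replicate 1 (edgeR adjusted p = 0.0636), without Notch2_cKO replicate 2 (0.0648) and with DESeq2 (0.0749). The region at 126369 bp was lost without control replicate 1 (edgeR adjusted p = 0.267), without control replicate 2 (0.0983), without Notch2_cKO replicate 1 (0.0578), with a replicate block (0.0598), with summed windows (0.0616) and with DESeq2 (0.0883).

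Prrx1, a paired-related homeobox factor of limb and body wall mesenchyme, spans 163245119 to 163315145 on chromosome 1, on the minus strand, and 4 of its 18 regions were higher, 0 lower and 14 did not pass. The largest rise among all 97 regions lay 74469 bp from the far end of Prrx1, 143000 bp downstream of its start (163170251 to 163170900). It had 6.44 and 7.18 CPM in Notch2_cKO against 1.83 and 1.86 CPM in control (log2 1.87, SE 0.20, edgeR adjusted p = 1.83e-06). Replicates of each group were close together and the call held in each alternative run. The next region on its far side, 146300 bp downstream (163167001 to 163167600), had 10.5 and 12.6 CPM in Notch2_cKO and 13.3 and 13.6 CPM in control and did not pass (log2 -0.24, SE 0.15, edgeR adjusted p = 0.263).

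The other 3 higher regions lay around the start of Prrx1. At 8000 bp upstream (163321351 to 163322000) the level was 3.51 and 3.71 CPM in Notch2_cKO against 1.59 and 1.75 CPM in control (log2 1.10, SE 0.22, edgeR adjusted p = 0.00124), a call that held in each alternative run. At 3450 bp upstream (163316951 to 163317250) a weak region had 1.50 and 1.22 CPM in Notch2_cKO against 0.753 and 0.537 CPM in control (log2 1.12, SE 0.34, edgeR adjusted p = 0.0205). Inside the gene, 21550 bp downstream and overlapping the lncRNA gene Gm20471 (163291851 to 163292400), it was 7.97 and 8.38 CPM in Notch2_cKO against 6.26 and 4.50 CPM in control (log2 0.60, SE 0.18, edgeR adjusted p = 0.0194). The groups were separate at all 3, but 2 of the calls were lost under some alternatives. The region at 3450 bp was lost without control replicate 2 (edgeR adjusted p = 0.144), without Notch2_cKO replicate 1 (0.262) and with DESeq2 (0.24). The region at 21550 bp was lost without control replicate 2 (edgeR adjusted p = 0.352), with summed windows (0.0791) and with DESeq2 (0.0745).

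Near and far regions of Prrx1 were also counted apart. Of the 12 regions inside the gene or within 10000 bp of it, all 12 had a log2 change above 0 (0.03 to 1.12, median 0.34), with 3 called and both Notch2_cKO libraries above both controls in 10. Of the 6 regions farther away, 1 was called, the largest rise described above, 2 had a log2 change above 0, and both Notch2_cKO libraries lay below both controls in 3. This split by distance was made after the values were seen and was not tested.

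**Figure D2:**
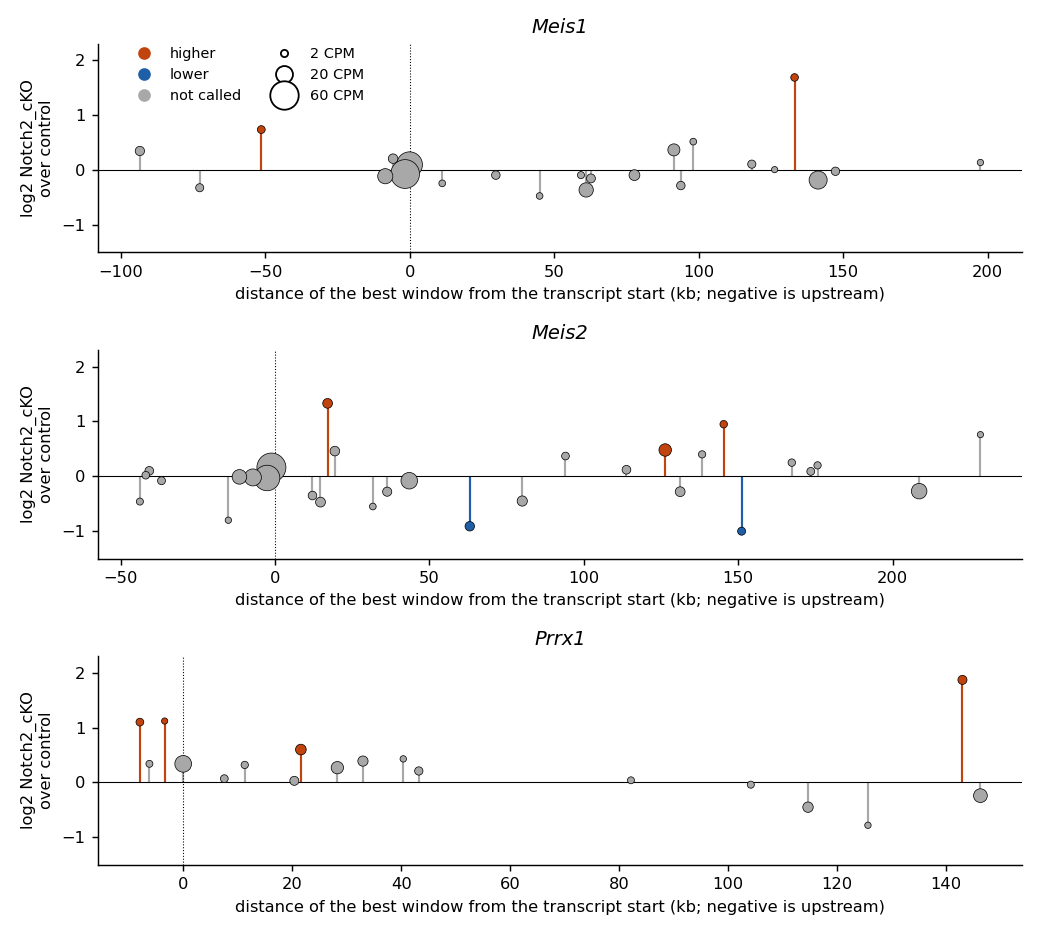
The 3 panels show the regions of Meis1, Meis2 and Prrx1 by the distance of the best window from the transcript start in kb (x axis, negative is upstream) and by log2 Notch2_cKO over control (y axis), with larger circles for higher mean CPM. The largest circles sit at the starts of Meis1 and Meis2 near 0, called regions are smaller circles that lie off the starts, the nearest being 3450 bp upstream of Prrx1, and the circles around the start of Prrx1 lie above 0.

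Osr1, a zinc finger factor of fibroblast progenitors on chromosome 12, had 2 lower regions, 0 higher ones and 5 that did not pass, and all 7 had a log2 change below 0. The lower regions were far from the gene. At 86192 bp (9487951 to 9488550) the level was 2.27 and 2.93 CPM in Notch2_cKO against 4.94 and 5.23 CPM in control (log2 -1.02, SE 0.20, edgeR adjusted p = 0.00105). At 54942 bp (9519251 to 9519800) it was 3.98 and 5.26 CPM in Notch2_cKO against 6.94 and 7.34 CPM in control (log2 -0.68, SE 0.18, edgeR adjusted p = 0.0102). The groups did not overlap at either. The first call held in each alternative run, and the second was lost without control replicate 2 (edgeR adjusted p = 0.0607), without Notch2_cKO replicate 1 (0.205) and with DESeq2 (0.118). Another distal region at 60342 bp (9513801 to 9514300) fell just short, with 2.62 and 3.09 CPM in Notch2_cKO and 4.44 and 3.85 CPM in control (log2 -0.57, SE 0.21, edgeR adjusted p = 0.0519).

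The 4 Osr1 regions within 10000 bp of the gene were stronger and did not pass. That at the lower-coordinate end (9574201 to 9574950) had 22.4 and 24.7 CPM in Notch2_cKO and 25.0 and 22.7 CPM in control, interleaved (log2 -0.02, SE 0.12, edgeR adjusted p = 0.914). That at the other end (9580551 to 9581100) had 11.2 and 10.4 CPM in Notch2_cKO and 14.2 and 12.0 CPM in control (log2 -0.27, SE 0.15, edgeR adjusted p = 0.208). The strongest, 3450 bp from the gene (9584651 to 9585300), had 27.0 and 24.3 CPM in Notch2_cKO and 30.4 and 28.9 CPM in control (log2 -0.20, SE 0.12, edgeR adjusted p = 0.237). Regions around Osr1 were counted as well. Of 43 regions within 500000 bp that belong to other genes or to none, 14 were lower and 3 higher, with a median log2 change of -0.35. Over all regions 11.2% were lower and 12.5% higher, with a median of 0.01. The part of these surroundings in the Osr1 values was not tested. Around Tcf21, whose called region was lower, 8 of 36 such regions were higher and 2 lower (median log2 0.12). Across the 9 genes, the share of such regions called ran from 5.26% around Nkx2-3 to 39.5% around Osr1, against 23.7% of all regions.

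**Figure D3:**
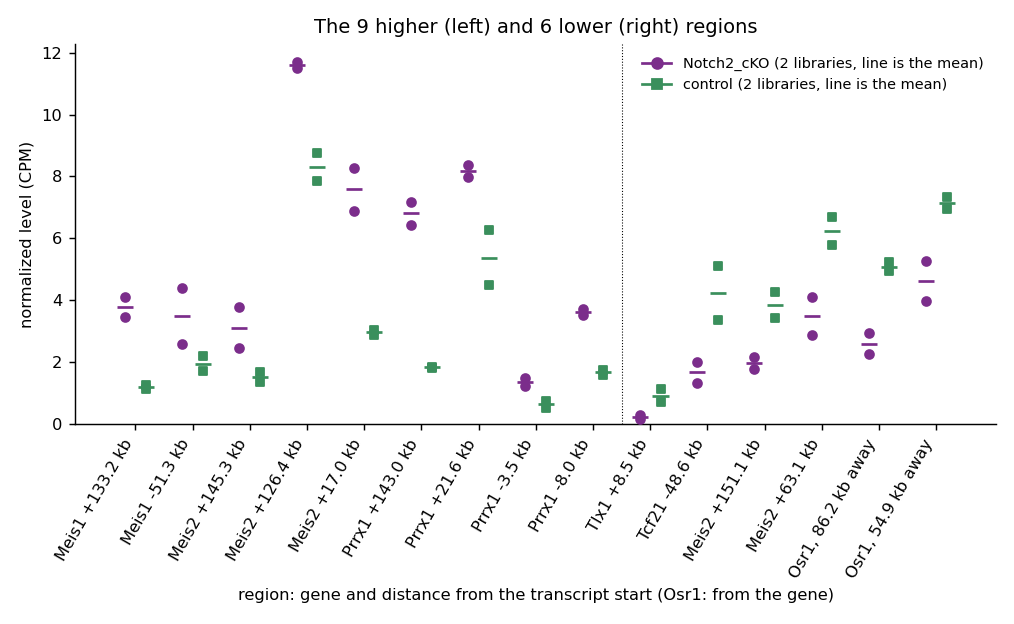
Normalized level in CPM (y axis) of the 9 higher regions (left of the dotted line) and the 6 lower regions (right of it), with Notch2_cKO libraries as circles, control libraries as squares and a line at each mean of 2. Regions are named by gene and distance from the transcript start, or from the gene for Osr1. No called region reaches 12 CPM in any library, and the groups are separate in all 15.

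The regions at the starts of Meis1, Meis2 and Prrx1 were open in all 4 libraries. At the start of Meis1 (19018751 to 19019250) the level was 49.7 and 51.1 CPM in Notch2_cKO and 46.3 and 47.9 CPM in control (log2 0.10, SE 0.10, edgeR adjusted p = 0.518). A region 1581 bp upstream (19020251 to 19020850) had 60.4 and 59.8 CPM in Notch2_cKO and 63.9 and 62.2 CPM in control (log2 -0.07, SE 0.09, edgeR adjusted p = 0.641). These 2 Meis1 regions went opposite ways by small amounts, and the sign of the first turned with TMM factors (log2 -0.05). At Meis2 the 2 strongest regions lay 1181 bp and 2581 bp upstream of the start listed for its promoter window. The first (116065551 to 116066050) had 62.9 and 69.1 CPM in Notch2_cKO and 60.4 and 57.7 CPM in control (log2 0.16, SE 0.09, edgeR adjusted p = 0.24), and its sign also turned with TMM factors (log2 -0.03). The other (116066951 to 116067450) had 49.5 and 45.2 CPM in Notch2_cKO and 47.2 and 49.8 CPM in control (log2 -0.03, SE 0.10, edgeR adjusted p = 0.86). At Prrx1 the start region (163313451 to 163313900) had 21.0 and 22.5 CPM in Notch2_cKO against 16.4 and 17.8 CPM in control, without overlap, and did not pass (log2 0.34, SE 0.13, edgeR adjusted p = 0.061), though it did without Notch2_cKO replicate 1 (0.0278), with total counts (0.0344) and with a block of crossed replicate numbers (0.0116).

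The start windows of Meis1, Prrx1 and Twist1 are shown because they overlap these regions. They run from 250 bases before to 50 bases after the transcript start, come from RefSeq on mm10 and are written 5′ to 3′ on the strand of the gene. A promoter entry was at hand for 8 of the 9 genes, Osr1 being the exception. Meis1 (chr11:19018920-19019219, minus strand) and Prrx1 (chr1:163313601-163313900, minus strand) lie wholly in their accessible regions, and 70 bases of Twist1 (chr12:33957421-33957720, plus strand) do. Capitals mark the letters TGGGAA, the core bound by RBPJ, the DNA-binding partner of Notch, CANNTG, the E-box bound by bHLH factors, and TAATTA, a core bound by many homeobox factors, each searched on both strands.
Meis1: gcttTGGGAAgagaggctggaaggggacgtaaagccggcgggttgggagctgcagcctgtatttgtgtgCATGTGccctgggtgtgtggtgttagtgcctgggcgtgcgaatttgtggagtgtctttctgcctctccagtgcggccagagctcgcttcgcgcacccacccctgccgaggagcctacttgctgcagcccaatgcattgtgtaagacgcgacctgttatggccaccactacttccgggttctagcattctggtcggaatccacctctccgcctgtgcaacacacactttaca
Prrx1: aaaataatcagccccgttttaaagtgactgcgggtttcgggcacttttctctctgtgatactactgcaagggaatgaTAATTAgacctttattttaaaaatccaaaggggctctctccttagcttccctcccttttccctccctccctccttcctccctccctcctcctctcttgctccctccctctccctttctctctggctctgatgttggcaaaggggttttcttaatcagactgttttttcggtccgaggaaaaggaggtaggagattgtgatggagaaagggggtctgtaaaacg
Twist1: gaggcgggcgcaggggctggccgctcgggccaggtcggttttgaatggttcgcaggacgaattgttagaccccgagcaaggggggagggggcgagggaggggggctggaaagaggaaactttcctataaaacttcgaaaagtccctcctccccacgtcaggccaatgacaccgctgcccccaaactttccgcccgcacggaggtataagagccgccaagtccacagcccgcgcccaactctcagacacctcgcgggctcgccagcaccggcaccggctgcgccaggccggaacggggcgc
Meis1 held 1 TGGGAA and 1 CANNTG match, Prrx1 held 1 TAATTA match, and Twist1 held none of the 3. No matches overlapped. Of 32851 RefSeq start windows, 25.6% held TGGGAA, 72.3% CANNTG and 5.29% TAATTA. The GC content was 58.3% for Meis1, 47.7% for Prrx1 and 66.0% for Twist1, against a median of 52.7%. A match is a run of letters and no evidence of binding.

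**Figure D4:**
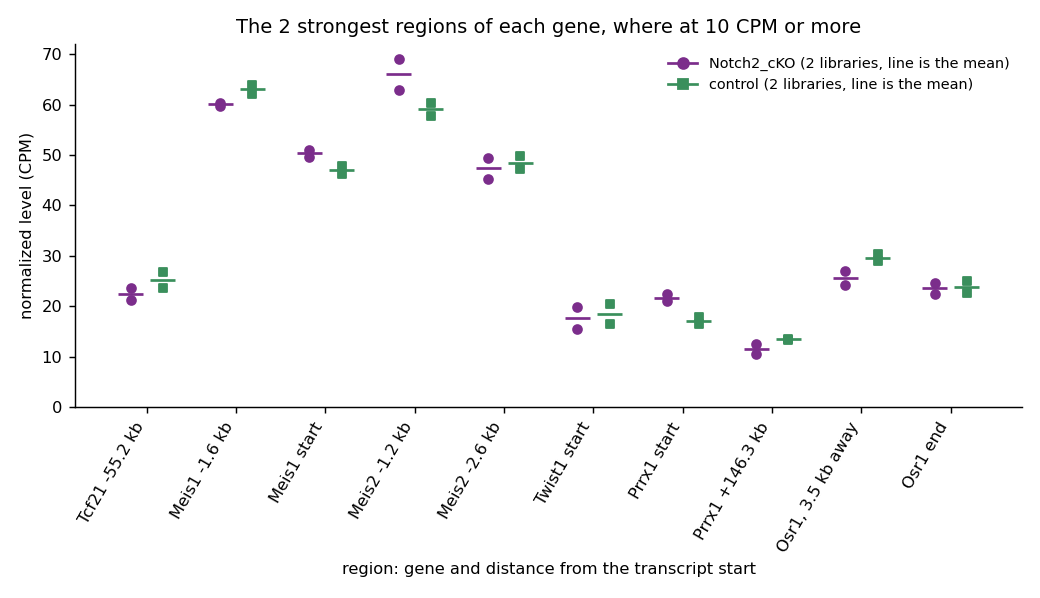
Normalized level in CPM (y axis, from 0) of the 2 strongest regions of each gene where they reach 10 CPM, with Notch2_cKO libraries as circles, control libraries as squares and a line at each mean of 2. None of these regions was called. The Meis1 and Meis2 starts stand highest, at 45.2 to 69.1 CPM over all libraries.

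Level and place were compared with all regions. Of the 9 members at 20 CPM or more 0 were called, where 12.6% of 13055 such regions were called over the whole table. By edgeR 0 of these 9 had an unadjusted p under 0.05, DESeq2 also called 0, and their log2 changes lay between -0.20 and 0.16. The Meis1 region at 18877401 and the Meis2 region at 116071451 were not followed one by one under the other settings. Of the rest, the Meis1 region 1581 bp upstream passed with median centring (log2 -0.34, edgeR adjusted p = 0.027). The Meis2 region 1181 bp upstream passed without Notch2_cKO replicate 1 (log2 0.23). Members at 5 to 20 CPM were called in 4 of 23 (17.4%, against 28.7% of all such regions), and those under 5 CPM in 11 of 65 (16.9%, against 23.7%). By place, 0 of 6 members within 1000 bp of a gene end were called (10.2% of all gene-end regions, 5.74% higher and 4.43% lower), with 0 at an unadjusted p under 0.05 by edgeR and 0 called by DESeq2. The start region of Prrx1 was in neither class, at 19.4 CPM and counted as inside its gene. Its unadjusted edgeR p was 0.0155 and its edgeR adjusted p 0.061. The Meis2 region 1181 bp upstream was also counted as inside its gene. Inside genes 7 of 42 were called, 5 higher and 2 lower (16.7%, against 25.0% of all such regions, 13.5% higher and 11.5% lower). Outside genes 8 of 49 were called, 4 in each direction (16.3%, against 24.2%, 13.2% higher and 11.0% lower). The members thus stood below the share of all regions in each class with any call, as a description without a test.

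Counts summed over all regions of a gene gave 1 value per gene, in which opposite changes cancel. These gene sums were scaled by loess offsets of their own, so their CPM are not the region CPM added up. The single Nkx2-5 region, for example, had 5.79 CPM in Notch2_cKO replicate 1 as a region and 6.09 CPM as a gene sum. Its log2 change was 0.32 as a region and 0.29 as a gene sum. Of 17691 genes with a region, 18.5% were called, 10.3% higher and 8.17% lower, and of the 9 genes Prrx1 was higher while 8 did not pass. Prrx1 summed to 102 and 118 CPM in Notch2_cKO against 84.6 and 81.7 CPM in control (log2 0.40, SE 0.08, edgeR adjusted p = 0.00467). The 2 groups were well apart, and the call held with each library left out. Among 41 neighbouring regions within 500000 bp that do not belong to Prrx1, 9 were higher and 1 lower (median log2 0.12). This share of 24.4% stood beside 23.7% of all regions, of which 12.5% were higher and 11.2% lower. The part of these neighbours in the Prrx1 values was not tested.

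The sums of the Meis genes were nearly equal between the groups. Meis2 had 289 and 291 CPM in Notch2_cKO and 284 and 287 CPM in control (log2 0.02, SE 0.05, edgeR adjusted p = 0.785), with its called regions going both ways. Meis1 had 240.0 and 243 CPM in Notch2_cKO and 239 and 244 CPM in control (edgeR adjusted p = 0.984). By the summed level Meis2 stood at percentile 98.8 of all genes and Meis1 at 97.9. Of the region CPM added up over each gene, the 2 strongest regions held 41.6% for Meis2 and 49.5% for Meis1. Tcf21 had 34.1 and 38.9 CPM in Notch2_cKO and 46.8 and 41.0 CPM in control (log2 -0.28, SE 0.10, edgeR adjusted p = 0.0832) and passed the test when Notch2_cKO replicate 2 was left out (0.00238). Osr1 had 90.9 and 95.2 CPM in Notch2_cKO and 104 and 101 CPM in control (log2 -0.15, SE 0.07, edgeR adjusted p = 0.15), with no overlap. Twist1 had 21.7 and 18.4 CPM in Notch2_cKO and 20.8 and 24.2 CPM in control (edgeR adjusted p = 0.454).

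Nkx2-3, Tlx1 and Nkx2-5 had the lowest sums of the 9 genes. Nkx2-3 had 10.1 and 9.01 CPM in Notch2_cKO and 12.2 and 10.3 CPM in control (edgeR adjusted p = 0.344). Tlx1 had 7.60 and 7.06 CPM in Notch2_cKO and 9.46 and 8.49 CPM in control (edgeR adjusted p = 0.215). Nkx2-5 had 6.09 and 5.55 CPM in Notch2_cKO and 4.11 and 5.46 CPM in control (edgeR adjusted p = 0.293). By the mean summed level on this gene-level scale, Meis2 and Meis1 came first, then Osr1 and Prrx1. Tcf21, Twist1, Nkx2-3, Tlx1 and Nkx2-5 followed in this order. Osr1 was below Prrx1 in Notch2_cKO and above it in control, while Nkx2-3 was above Tlx1 in all 4 libraries. Sums grow with the number of regions a gene was given, so this order is not one of expression. By the distance between library profiles centred over the 4 libraries, the genes most like Meis2 among 1359 with enough regions were Arrdc4, Col4a2 and Kcnb2, at 0.0155, 0.0215 and 0.0226 against a median of 0.172. Their log2 changes were 0.02, 0.03 and 0.01, beside 0.02 for Meis2. The likeness is thus one of sums that hardly differ between the libraries.

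**Figure D5:**
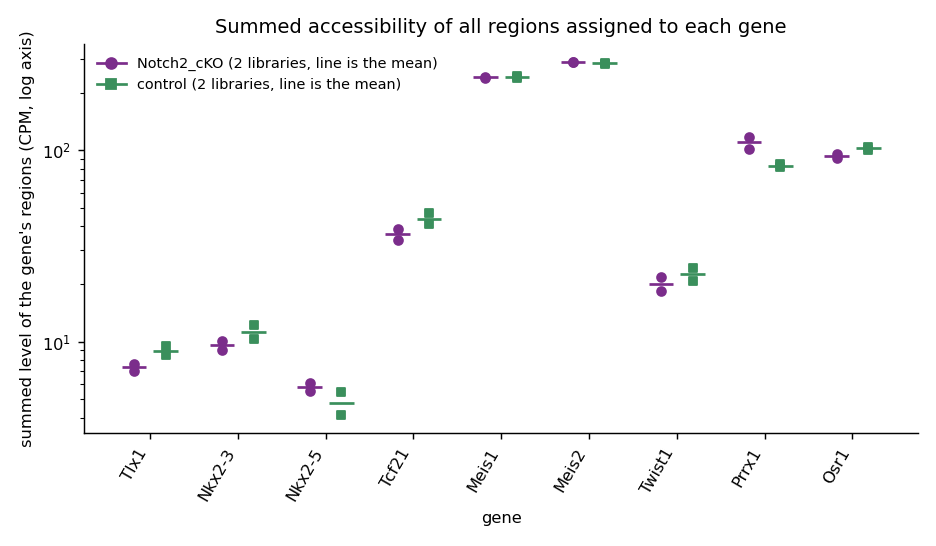
Counts summed over all regions assigned to each gene, as CPM scaled on the gene sums (log y axis). Notch2_cKO libraries are circles and control libraries squares, with a line at each mean of 2. The Prrx1 circles (102 and 118 CPM) lie above its squares (84.6 and 81.7 CPM), and those of Meis1 and Meis2 coincide with theirs.

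Other factors of the same kinds were counted in the same fit, from a list of 36 genes of which 33 had regions and Tlx2, Tlx3 and Scx were not analysed here. Of their 293 regions 52 were higher, 24 lower and 217 did not pass, with a median log2 change of 0.06. The share called was 25.9%, near the 23.7% over all regions, of which 12.5% were higher and 11.2% lower. Partners of Meis among the TALE homeobox genes had 19 higher and 10 lower of 109 regions (26.6%). Homeobox relatives had 10 and 6 of 74 (21.6%), and bHLH partners and relatives 10 and 8 of 61 (29.5%). Zinc finger factors had 13 and 0 of 49 (26.5%), with a median of 0.29 in that last list. Prrx2 and Twist2, the closest relatives of Prrx1 and Twist1, had 3 higher and 0 lower of 5 regions and 3 higher and 1 lower of 12.

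The genes named next were among those with the most called regions of this list, where 12.5% of all regions were higher and 11.2% lower. Pknox2, a TALE homeobox gene, had 4 higher and 4 lower of 39 regions. The higher one of smallest p was inside the gene (log2 0.87, SE 0.11) and the lower one at its end (log2 -0.41, SE 0.11).

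Zeb2, a zinc finger repressor of epithelial genes, had 9 higher and 0 lower of 22 regions. Inside it a region on chromosome 2 (44985001 to 44985600) had 13.7 and 13.8 CPM in Notch2_cKO against 3.15 and 4.34 CPM in control (log2 1.87, SE 0.17, edgeR adjusted p = 4.18e-07). Tcf12, an E protein that pairs with Twist1 and Tcf21, had 6 higher and 0 lower of 14, the one of smallest p lying 78107 bp away (chromosome 9, 72189751 to 72190300) with 2.48 and 2.31 CPM in Notch2_cKO against 0.383 and 0.203 CPM in control (log2 3.03, SE 0.36, edgeR adjusted p = 4.86e-06). Msc, a bHLH repressor, had 0 higher and 6 lower of 15, with 2.69 and 2.86 CPM in Notch2_cKO against 6.05 and 5.07 CPM in control at a region 36961 bp away on chromosome 1, from 14792851 to 14793250 (log2 -1.01, SE 0.20, edgeR adjusted p = 0.00082). The groups were separate in each of these named regions.

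Regions of markers for neighbouring cell types were counted beside the 23.7% called over all regions, and their part in the results above was not tested. For mural cells, the strongest gene-end regions of 5 of 6 markers summed to 53.5 and 56.9 CPM in Notch2_cKO and 76.3 and 72.6 CPM in control, with 4 higher and 6 lower of 50 regions. For blood endothelium, 2 of 6 markers with a gene-end region summed to 32.2 and 33.2 CPM in Notch2_cKO and 23.5 and 22.5 CPM in control, with 12 higher and 3 lower of 53 regions. For lymphatic endothelium, 2 of 6 summed to 23.7 and 24.2 CPM in Notch2_cKO and 23.6 and 21.7 CPM in control, with 0 higher and 8 lower of 52 regions. For fibroblastic reticular cells, 10 of 13 summed to 258 and 266 CPM in Notch2_cKO and 255 and 267 CPM in control, with 9 higher and 13 lower of 125 regions.

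Of the 15 calls, 6 held in every alternative run, 9 were lost in at least 1, and 8 of these were lost when a single library was left out. Counts of members depended on which library was left out. Without Notch2_cKO replicate 2, the shallowest library, 7 were higher and 13 lower, and without Notch2_cKO replicate 1, 11 were higher and 4 lower. Without control replicate 2, the library with Y-linked counts, 6 were higher and 5 lower, the same counts as without control replicate 1. With each library centred on its median, 9 were higher and 13 lower, which turned the balance between the directions.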

How the data were processed

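The authors deposited 1 table of whole-number counts for 678058 overlapping 300-bp windows spaced by 50 bp, with 1 column for each of the 4 libraries. The submitters' processing notes name build mm10 and, with no order, deepTools, Picard, Trim Galore, SAMtools, cutadapt and Bowtie2 2.4.5. The labels call the deposited counts loess-normalized by csaw, but window sums ranged from 80428121 to 196562399 per library, so they were treated as counts without normalization. Neither a peak caller, nor a window filter, nor a shift of reads is named in the labels.

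Merging gave 110110 regions with a median width of 600 bp. Loess offsets on mean level were computed with limma 3.58.1, and edgeR 4.0.16 in R 4.3.3 fitted genotype on all regions, with the steps tested on simulated data. CPM are counts scaled by these offsets, and gene sums were fitted apart with offsets of their own. SE values divide each log2 change by the root of its F value. Genes and start windows came from RefSeq tables of the same assembly, with no genome sequence. Where genes overlapped, the shortest was taken. Exons and introns were not used here. Alternatives included DESeq2 1.42.0, limma-trend (prior count 2), other scalings, a filter on low regions, summed windows, merging up to 1000 bp, a replicate block and each library left out.

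All 9 genes are named, with their start or end regions, strongest region and every called region. The members and lists were chosen with earlier results of these data known. With 2 libraries a group, intervals and tests cover the spread between pools, and depth limits weak regions most. Of the other factors, 1 gene is not reported here by name.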

Additional observations from a re-analysis of the deposited data

How the results depend on the processing

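Some of the region counts moved by more than 1.5 times under these settings, while others given here moved less. Median centring, for example, gave 12003 higher and 17616 lower over all regions, within 1.5 times of the main counts. Over all regions, 13786 were higher and 12324 lower. DESeq2 gave 7381 and 5470, and an adjusted p under 0.01 gave 8526 and 7031. With single libraries left out, 8939 to 15497 were higher and 7993 to 14732 lower. Median centring made 40.5% of called regions higher, against 52.8%. Of the members, DESeq2 called 4 higher and 3 lower, an adjusted p under 0.01 left 4 higher, genes within 10000 bp gave 3 lower of 64 regions, and median centring gave 13 lower. Leaving out single libraries gave 6 to 11 higher and 4 to 13 lower members. For the other factors, DESeq2 gave 25 higher and 9 lower, median centring 37 lower, and single libraries left out 27 to 51 higher and 15 to 34 lower. At the gene level 1 of the 9 genes was lower without Notch2_cKO replicate 2 and 0 otherwise (0 to 1). The causes were not tested. TMM, DESeq2 size factors and limma-trend each called all 15 members that edgeR called.

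The signs of several start regions that were not called turned. Meis1 at 19018751 gave log2 -0.05 with TMM, -0.04 with DESeq2 size factors and with DESeq2, and -0.13 with median centring. Merging up to 1000 bp joined it to the stronger Meis1 region at 19020251, whose window then stood for both (log2 -0.07), so this is no turn of sign. Meis2 at 116065551 gave -0.03 with TMM, DESeq2 size factors and DESeq2 and -0.11 with median centring. Meis2 at 116066951 gave -0.10 to 0.03 with single libraries left out. Merging up to 1000 bp joined it to the stronger region at 116065551, whose window then stood for both (log2 0.16). Twist1 at 33957651 gave 0.02 with total counts and -0.24 to 0.11 with single libraries left out. Osr1 at 9574201 gave 0.00 with total counts and -0.10 to 0.07 with single libraries left out. Nkx2-3 summed within 10000 bp gave 0.11. Meis1 summed gave -0.03 to 0.02 with single libraries left out.

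With a replicate block 8 members were higher and 6 lower, and over all regions 12207 and 10756. The deviations of same-numbered libraries from their group means were weakly and negatively correlated (correlation -0.179), so the numbers are not shown to pair the libraries. With 2 libraries a group, crossing the numbers only turns the sign of this value, so it does not show a crossed pairing either. With the numbers crossed, an alternative added after the data were seen, 13 members were higher and 11 lower, and 41 regions of the other factors were lower.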
